A study of Saccharomyces cerevisiae with 180 samples.

Results

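The 10 genes described here move sulfur into methionine in budding yeast: the sulfate permease genes SUL1 and SUL2, the sulfate activation and reduction genes MET3, MET14, MET16, MET5 and MET10, the genes MET2 and MET6 of the last steps to methionine, and the methionine permease gene MUP1. They were taken by name, 10 of 6002 protein-coding genes, with every nucleosome centred in the open reading frame or up to 500 bp upstream of the start codon. That gave 148 of the 65032 nucleosomes with counts: 18 upstream, 30 in the first 500 bp and 100 in the body, which is the rest of the reading frame. One further MET3 nucleosome of the atlas had no counts. The names were chosen by their pathway and with K18ac and K4me3 values of these strains in view, so all values below are descriptions.

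The study used combinatorial iChIP, in which micrococcal nuclease-cut chromatin is captured with a first antibody and then passed to a second antibody or kept as Input, so that 2 marks can be read on one nucleosome. All cultures grew in rich medium (YPD). The tested strains were set2 and eaf3 of a yeast deletion library and H3K36R of a histone mutation library, in which lysine 36 of histone H3 is replaced by arginine. The reference for set2 and eaf3 was the strain with the strain label bar1, titled WT, and the reference for H3K36R was WT H3, which carries unmutated histone H3. The H3K4R and H3K18R strains were not used for the comparisons. Antibodies were against H3, H3K4me3, H3K18ac, H3K36me3 and H3K79me3, named below without the H3, and no H3-first library of set2, eaf3 or bar1 was used here.

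Each strain and antibody combination was 1 library, so no difference below has a replicate check and none was tested. Intervals in brackets are exact 95% counting intervals of a log2 ratio. They cover counting error only, and reads that are PCR copies would make them too narrow. Amounts are given in CPM (reads scaled to the total of the library), and a nucleosome averaged 15.4 CPM in every library. The libraries of a mark followed by Input held 758641 (K4me3), 1039775 (K18ac), 2509006 (K36me3) and 1455269 (K79me3) reads in WT H3, and 187203 for H3. The shallow ones were K79me3 of bar1 with 10044 reads, K36me3 of set2 with 24149 and K79me3 of eaf3 with 108930, so K79me3 was not compared in set2 and eaf3. Over all libraries of a strain, EAF3 had 92 reads in eaf3 and 761 to 1299 in the other 4 strains, and SET2 had 57 reads in set2 and 2077 to 4209 in the others. BAR1 had 1030 reads in the strain labelled bar1 and 1028 to 1846 in the others, while NAM7, a helicase gene of nonsense-mediated mRNA decay, had 6 there and 1796 to 4320 in the others. By these reads the strain labelled bar1 lacked NAM7 and kept BAR1, and it is called bar1 below after its label only. The part of this in the differences from bar1 was not tested.

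Sulfate enters the yeast cell through Sul1 and Sul2, is activated by the ATP sulfurylase Met3 and the APS kinase Met14, and is reduced first by the PAPS reductase Met16 and then by sulfite reductase, whose alpha subunit is Met10 and beta subunit Met5. Met2 makes the O-acetylhomoserine that takes up the sulfide, and Met6 makes methionine from homocysteine. The genes are activated by Met4 with the DNA-binding factor Cbf1 when methionine is short and are kept low when it is plentiful, as in rich medium. In transcribed genes K4me3 and K18ac mark the 5′ end, Set2 travels with RNA polymerase II and places K36me3 along the body, K79me3 is placed by Dot1, and Eaf3 binds methylated K36 as a subunit of the Rpd3S histone deacetylase.

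The genes lie on 9 chromosomes of sacCer3 and none overlaps another gene. The coding lengths ran up to 4329 bp in MET5, with 609 bp in MET14 as the shortest. SUL1 (YBR294W) is at chromosome II, 789235 to 791814, on the plus strand, and SUL2 (YLR092W) at XII, 323544 to 326225, plus strand. MET3 (YJR010W) is at X, 456239 to 457774, plus strand, MET14 (YKL001C) at XI, 438777 to 439385, minus strand, and MET16 (YPR167C) at XVI, 876847 to 877632, minus strand. MET5 (YJR137C) is at X, 678957 to 683285, minus strand, and MET10 (YFR030W) at VI, 213312 to 216419, plus strand. MET2 (YNL277W) is at XIV, 117349 to 118809, plus strand, MET6 (YER091C) at V, 339864 to 342167, minus strand, and MUP1 (YGR055W) at VII, 599417 to 601141, plus strand. Of the upstream nucleosomes, 3 were centred in a neighbouring reading frame: GEP5 before SUL2, NUT2 before MET16 and PTR3 before MET10.

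In WT H3 the genes differed in the layout of the marks. MET5, MET10 and MET6 had K4me3 at the 5′ end and K36me3 along the body, and MUP1 had both marks in the body. MET3 and MET16 had few K36me3 reads over the first 500 bp, 33 and 22, at levels against H3 of −2.54 [−3.45, −1.49] and −2.78 [−3.85, −1.55]. Both were under the read minimum given below. The levels were −0.96 in MET14, −1.17 in MET5 and −0.94 in MET6, which passed it. SUL1 and SUL2 had few K4me3 reads at the start codon and more of them further into the gene, while MET2 was nearly flat in K4me3.

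The sulfate permease genes differed most from a 5′ K4me3 layout. In SUL1, the 3 nucleosomes of the first 500 bp had 0, 0 and 1 K4me3 reads, while the 6 nucleosomes from 1695 bp to the end had 8, 10, 6, 10, 11 and 10. K18ac followed the same slope, with 6, 5 and 5 reads in the first 500 bp and 27, 28 and 25 on the last 3 nucleosomes. K36me3 ran the other way, with 45 reads at 898 bp and 2 reads on the last nucleosome, at 2485 bp. Within SUL1, K36me3 reads thus lay more over the 5′ and middle part, and K4me3 and K18ac reads more towards the 3′ end. K4me3 and K36me3 were both low in this gene. Its highest K4me3 nucleosome had 14.5 CPM, below the nucleosome average of 15.4. Against H3, its body level was −1.36 for K4me3 and −0.68 for K36me3, below the medians of all genes, −0.52 and 0.41. The next gene downstream, PCA1, lies on the same strand 1035 bp further on. In SUL2, the first 3 nucleosomes had 3, 2 and 2 K4me3 reads, and the highest one, at 1569 bp (chromosome XII, 325038 to 325188), had 25. K36me3 in SUL2 was highest early, with 57 reads at 695 bp. In bar1, a separate strain, the first 3 nucleosomes of SUL1 had 3, 7 and 4 K4me3 reads and the last 3 had 9, 6 and 4, so the slope was not seen there.

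MET3, MET14 and MET16 act one after another in sulfate activation and reduction. MET3 had 5, 9 and 19 K36me3 reads on its first 3 nucleosomes, and at most 33, at 918 bp, further on. Its K18ac ran between 19 and 37 reads with the top at 649 bp. MET14, the shortest, had the most K4me3 (30 reads) and K18ac (43 reads) on its first nucleosome, at 86 bp, where K36me3 had 6 reads. MET16 had 2, 8, 12, 11 and 8 K36me3 reads along its reading frame, and 24 to 40 K18ac reads on the same nucleosomes. K36me3 was thus lowest on the first nucleosome of all 3, while K18ac was highest there in MET14 only.

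The sulfite reductase genes, the longest of the set, had K4me3 at the 5′ end and K36me3 over the rest. MET5 had 24 to 31 K4me3 reads on its 4 nucleosomes between 35 and 519 bp, 0 on each of the 4 between 1787 and 2236 bp, and 6 on the last. K36me3 was lowest on the first nucleosome with 11 reads and reached 104 at 2809 bp, and K79me3 reached 52 at the same nucleosome (chromosome X, 680401 to 680551). MET10 had 28 K4me3 reads at 101 bp and 2 at 1833 bp, with 110 K36me3 reads at 2293 bp and 56 K79me3 reads at 2406 bp. The middle parts of both were thus rich in K36me3 and K79me3 and poor in K4me3.

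MET6 and MUP1 both had K4me3 highest near the 5′ end, and differed in how far it reached. MET6 had 36 K4me3 reads at 179 bp and 2 at 1513 bp, and its K36me3 reached 81 reads at 1910 bp. MUP1 had the highest single K4me3 nucleosome of the set, 48 reads at 420 bp, and 1 read at 1594 bp. Its K36me3 was highest, with 74 reads, at 539 bp, next to the K4me3 top. Against H3, K4me3 in MUP1 was at 1.16 [0.36, 2.21] in the body and 1.14 [0.33, 2.19] in the first 500 bp, and in MET6 at −0.99 [−1.53, −0.42] and 0.83 [0.06, 1.79]. MET2 differed from both: its K4me3 ran from 11 to 16 reads on all 9 nucleosomes of the reading frame, its K36me3 was highest at 384 bp with 49 reads, and its K18ac was highest on the last nucleosome with 40 reads.

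**Figure D1:**
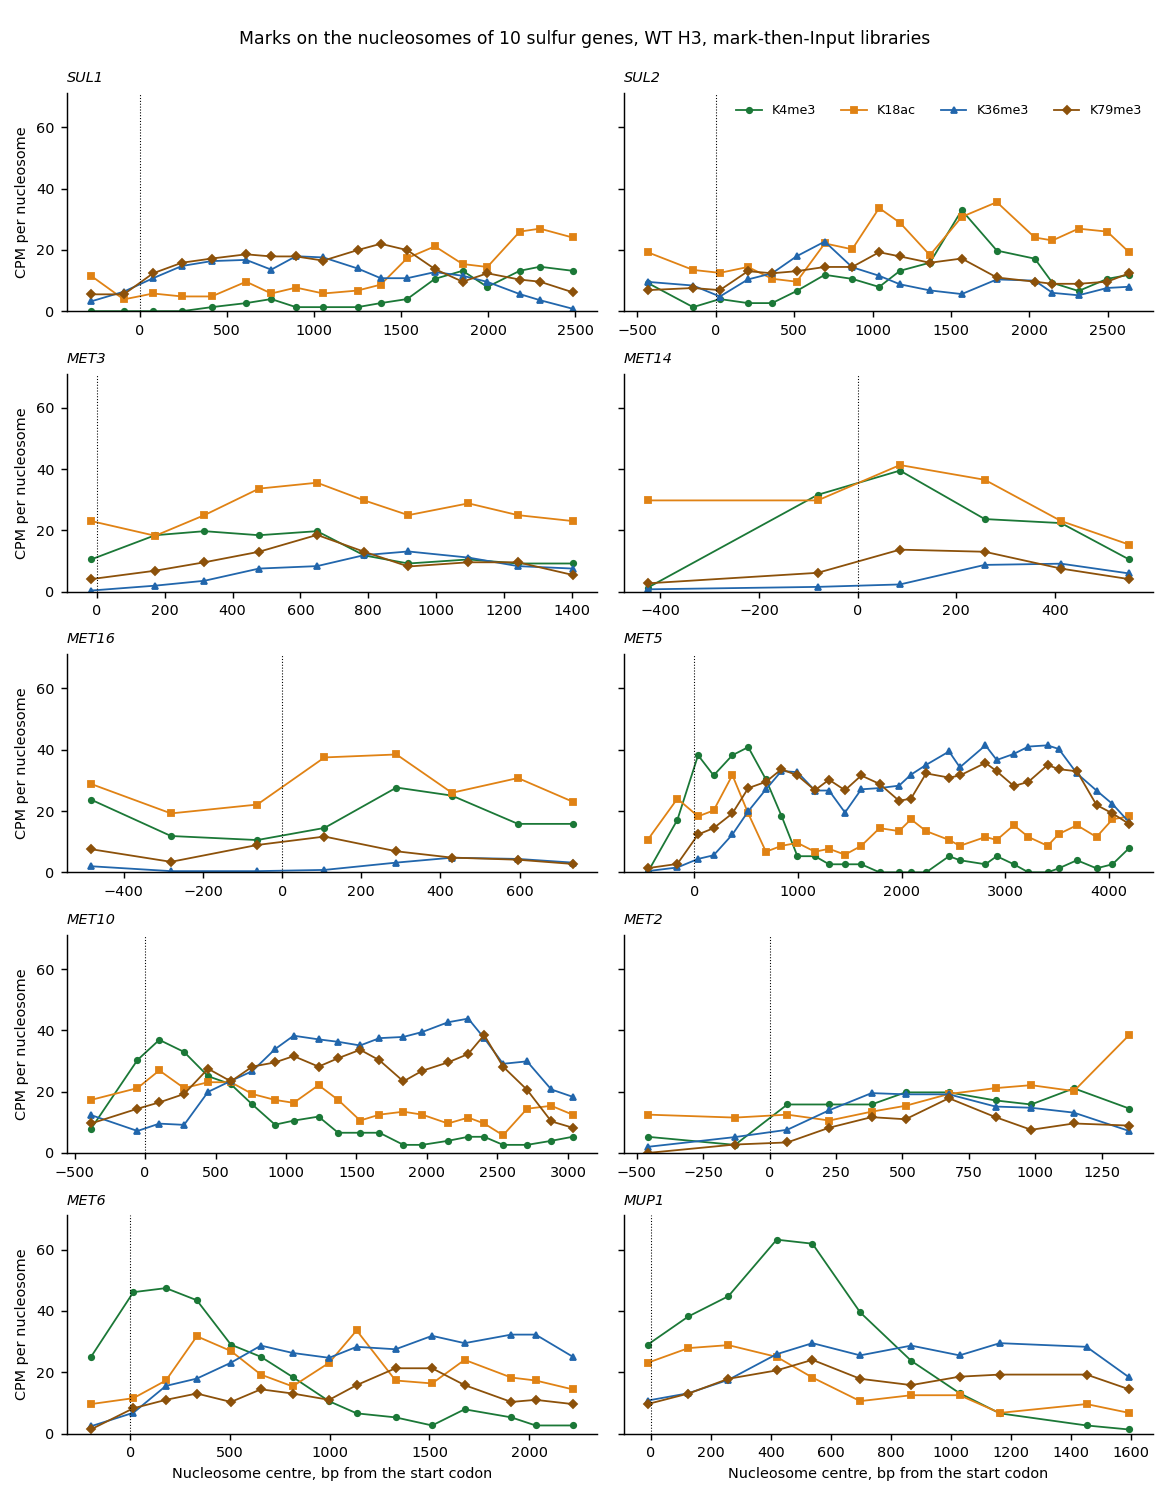
CPM on each nucleosome of the 10 genes in WT H3, by distance of the nucleosome centre from the start codon in bp, in the libraries of each mark followed by Input (1 library per mark). K36me3 (blue) lies above K4me3 (green) from 1000 bp on in MET5, MET10, MET6 and MUP1, while in SUL1 the 6 nucleosomes from 1695 bp to the end hold 6 to 11 K4me3 reads and the 3 of the first 500 bp hold 0, 0 and 1.

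Levels against histone H3 put the same layouts on one scale. A level is the log2 of the gene's share of the mark library over its share of the H3 library, with 0.5 reads added to each count, and a gene was read where both libraries together held at least 50 reads. This minimum takes out genes low in the mark, so the 3 members it removed for K4me3 in the first 500 bp are given with the rest. For K4me3 there, SUL1 had 1 read (1.32 CPM) against 9 H3 reads (48.1 CPM), a level of −4.68 [−10.64, −2.34]. SUL2 had 7 K4me3 and 5 H3 reads, −1.57 [−3.41, 0.47], and MET2 36 and 10 reads, −0.22 [−1.21, 1.01]. Of the genes read, MET3 was at −0.43 [−1.30, 0.58] and MET16 at 0.14 [−0.76, 1.28], and MET6, MET10, MET5, MET14 and MUP1 at 0.83 to 1.14. None of the 7 members read was above the median of all genes, 1.21, against 49.9% of genes. Without the read minimum, which also lowers the median of all genes, 4 of 10 members were above it. The upper limits of SUL1, SUL2, MET3 and MET2 were below 1.21. That median is of genes that passed the read minimum, which SUL1, SUL2 and MET2 did not. These limits were not compared with the lower median, and the share of all genes with such a limit was not counted.

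For K18ac in the first 500 bp, 3 of 7 members read were above the median of all genes, 0.65 (49.9% of genes): MET14 at 1.34 [0.34, 2.78], MET16 at 0.74 [−0.10, 1.84] and MET10 at 0.66 [−0.32, 2.00]. SUL1, under the read minimum with 16 K18ac and 9 H3 reads, was lowest at −1.68 [−2.91, −0.28]. In the body, K18ac was highest in MET16, at 2.02 [0.41, 5.41] with 56 K18ac and 2 H3 reads, and in MET3, at 1.02 [0.30, 1.93] with 174 and 15 reads. It was lowest in MET5, at −0.75 [−1.09, −0.39] with 295 and 89 reads. The median of all genes in the body was −0.29, and 6 of the 9 members read were above it.

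K36me3 levels over the body lay on both sides of the median of all genes, at the share of all genes. MUP1 was at 1.47 [0.71, 2.49], MET10 at 0.86 [0.49, 1.28], MET5 at 0.64 [0.34, 0.97] and MET6 at 0.42 [−0.01, 0.91], which are the 4 of 8 members read that were above the median of all genes, 0.41 (50% of genes). MET6 passed this median by little, 0.415 against 0.407. MET3 at −0.45 [−1.17, 0.47], SUL2 at −0.65 [−1.11, −0.11], SUL1 at −0.68 [−1.12, −0.17] and MET2 at −0.78 [−1.33, −0.13] were below the median. MET16 at −0.78 and MET14 at −1.60, with 19 and 15 K36me3 reads, were under the read minimum. The intervals of MET5 and MET10 did not overlap those of SUL1, SUL2 and MET2. For body K79me3, MUP1 at 0.96, MET5 at 0.54 and MET10 at 0.54 were above the median of all genes, 0.22, 3 of 8 members read against 50% of genes, and MET2 was lowest of the 8 at −1.18 [−1.79, −0.50]. MET6, above the median in K36me3, was below it in K79me3 at −0.59 [−1.05, −0.07].

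**Figure D2:**
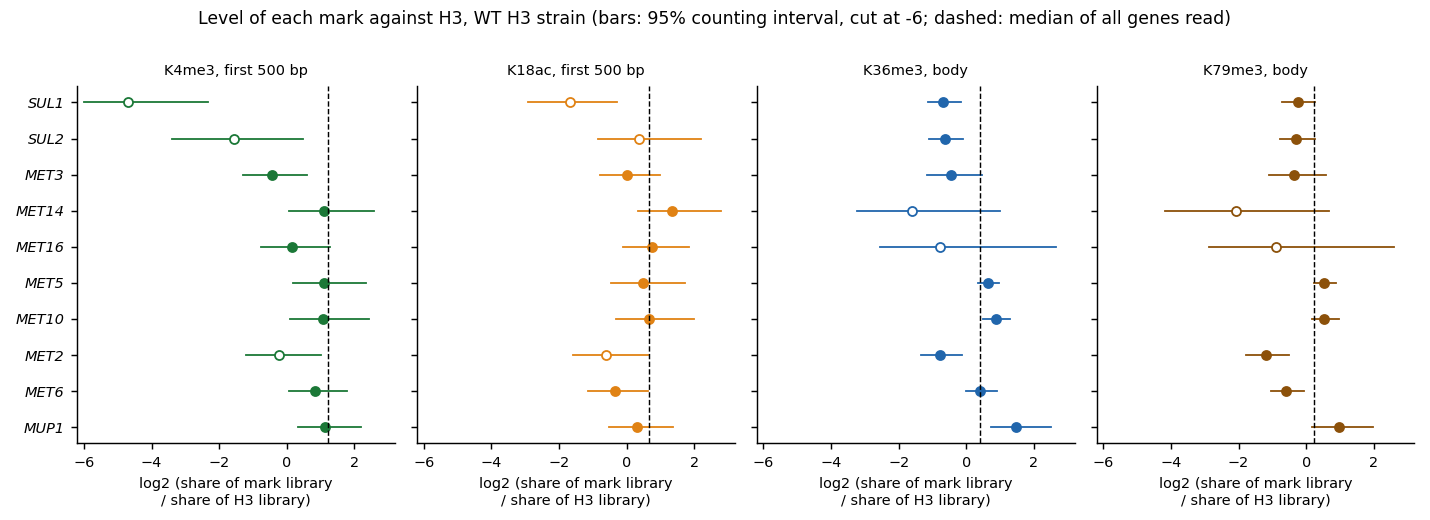
Level of K4me3 and K18ac in the first 500 bp and of K36me3 and K79me3 in the body of each gene in WT H3, as log2 of the mark's share over that of H3, with 95% counting intervals, drawn no lower than −6 (1 library each); open points are under the read minimum and dashed lines are the medians of all genes read. SUL1 stands lowest in K4me3 and K18ac, and MUP1, MET10, MET5 and MET6 are right of the dashed line in body K36me3.

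Both marks on one nucleosome were read from the libraries that passed K18ac or K4me3 material to the other antibody. From K18ac to K4me3 (186077 reads), SUL1 had 0 reads in the first 500 bp and 20 in the body, and MET5 had 20 in the first 500 bp and 14 in the body. The joint signal thus lay in the body of SUL1, and more of it at the 5′ end than in the longer body of MET5. SUL2 had 2 and 45 reads in those zones, and its body level against H3, 0.21 [−0.44, 0.87], was above the median of all genes, −1.54. From K4me3 to K18ac (46653 reads), MET14 had the most joint reads in the first 500 bp, 13 against 7 H3 reads, while MET5 had 0 reads in the whole body. From K36me3 to K79me3, over the body, MUP1 at 1.15 [0.33, 2.21] and MET10 at 0.76 were the 2 of 7 members read above the median of all genes, 0.51, MET5 was at 0.48 [0.16, 0.84], and MET2 was lowest at −1.12 [−1.83, −0.37].

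In set2, eaf3 and H3K36R, which lack the K36 methyltransferase, the K36me3 reader or the lysine itself, body K4me3 was highest against the reference in MET10, MET6 and MET5. In set2, MET10 had 231 body reads (273 CPM) against 62 (106 CPM) in bar1, a log2 difference of 1.36 [0.96, 1.79]. MET6 had 177 reads (209 CPM) in set2 against 52 (88.8 CPM) in bar1, 1.23 [0.78, 1.71], and MET5 had 392 (463 CPM) against 140 (239 CPM), 0.95 [0.67, 1.24]. These were the 3 highest of the set, and MET10 and MET6, 2 of 8 members read, were past 2-fold, against 9.28% of all genes. MET3 was at 0.74 [0.20, 1.32], SUL1, SUL2 and MUP1 were between −0.27 and 0.25, and MET2, with 56 reads in set2 against 68 in bar1, was at −0.81 [−1.35, −0.28]. The median of all genes was 0.27. MET14 and MET16 had 18 and 27 reads in set2 against 18 and 15 in bar1, under the read minimum. No member was past 2-fold lower in set2, eaf3 or H3K36R, against 1.42%, 0.963% and 1.07% of genes. With libraries centred on the median gene, 1 member was past 2-fold higher in set2 and 1 in eaf3.

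In eaf3 the same order held at the top. MET10 had 502 body K4me3 reads (298 CPM) in eaf3 against 62 (106 CPM) in bar1, 1.48 [1.11, 1.90], and MET6 had 304 (180 CPM) against 52 (88.8 CPM), 1.01 [0.59, 1.47]. These 2 of 9 members read were past 2-fold, against 8.58% of all genes. MET5 was at 0.93, MET3, MUP1 and SUL1 at 0.36 to 0.40, SUL2 at −0.33 [−0.62, −0.04] and MET2 at −0.41 [−0.83, 0.03], and MET16 at −0.04. MET14, with 31 reads in eaf3 against 18 in bar1, was under the read minimum. The set2 and eaf3 values share the bar1 library, so they are not separate evidence.

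H3K36R and WT H3 are other strains and other libraries. MET5 had 384 body K4me3 reads (356 CPM) in H3K36R against 110 (145 CPM) in WT H3, 1.29 [0.99, 1.61], and was the 1 of 9 members read past 2-fold, against 6.02% of all genes. MET10 had 259 reads (239.9 CPM) against 94 (124 CPM), 0.95 [0.61, 1.31], and MET6 had 224 (207 CPM) against 88 (116 CPM), 0.83 [0.48, 1.21]. MET5, MET10 and MET6 were thus the highest 3 in each of the 3 strains, in an order that differed. SUL1 was lowest, with 52 reads (48.2 CPM) in H3K36R against 68 (89.6 CPM) in WT H3, −0.89 [−1.45, −0.35], and 1.75% of genes read were lower. MET16, SUL2, MUP1, MET2 and MET3 were between −0.15 and 0.39, and MET14 had 16 reads in H3K36R against 8 in WT H3, under the read minimum. The H3 libraries of these 2 strains differed by 0.02 [−0.41, 0.45] over the MET5 body, −0.26 [−0.83, 0.31] over MET10, 0.14 over MET6 and −0.37 [−1.06, 0.31] over SUL1.

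The difference lay far from the 5′ end. From 1000 bp to the stop codon, K4me3 in H3K36R was 2.59 [2.12, 3.13] above WT H3 in MET5 with 330 against 38 reads, 1.72 [1.11, 2.43] in MET6, 1.19 [0.77, 1.65] in MET10 and 1.05 [0.28, 1.93] in MUP1. These 4 of 8 members read were past 2-fold, against 26.3% of genes, and they are the 4 with body K36me3 above the median of all genes in WT H3. MET6 was above that median by little, at 0.415 [−0.01, 0.91] against 0.407. Body K36me3 levels read in bar1 put 2 members above the median. The same 4 were past 2-fold in eaf3 (26% of genes), where MET10 was at 1.99, MUP1 at 1.19, MET5 at 1.10 and MET6 at 1.09. In set2 (28% of genes), 2 of 7 members read were, MET10 at 1.88 and MET6 at 1.34, and MET5 was at 0.99 [0.67, 1.33]. The zone border thus moved the count in eaf3 to 4, against 2 in the body, and in H3K36R to 4, against 1. In the first 500 bp none of the 8 members read in set2, 10 in eaf3 and 8 in H3K36R was past 2-fold in K4me3. Of all genes, 0.602% were higher and 8.09% lower there in set2, 1.12% and 5.08% in eaf3, and 0.32% and 1.7% in H3K36R. SUL1, under the read minimum in H3K36R, had 10 reads there against 1 in WT H3, and SUL2 had 19 against 7.

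Within a gene, the share of K4me3 reads that lay in the body rather than the first 500 bp shows this without any scaling between libraries. In MET10 it was 80.5% in set2 and 84.2% in eaf3, against 55.4% in bar1, and 70% in H3K36R against 56.6% in WT H3. In MET6 it was 74.7% in set2 and 69.7% in eaf3, against 49.1% in bar1, and 66.9% in H3K36R against 45.8% in WT H3. In MET5 it was 86.7% and 86.3%, against 72.5% in bar1, and 76.04% in H3K36R against 57.3% in WT H3. The share was lower in SUL2 in each, with 85.9% in set2 and 83.9% in eaf3 against 91.1% in bar1, and 90.5% in H3K36R against 95.0% in WT H3. The body to 5′ ratio was higher in 5 of 10 members in set2, 8 of 10 in eaf3 and 7 of 10 in H3K36R, against 82.4%, 85% and 68.8% of genes. For K18ac it was higher in 6, 5 and 7 of 10 members, against 81.3%, 77.6% and 80.6% of genes.

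K18ac differed less. No member was past 2-fold over the body in set2 (0 of 10 read, 0.62% of genes), eaf3 (0 of 10, 0.527%) or H3K36R (0 of 9, 1.2%), and none was past 2-fold lower (1.13%, 0.769% and 0.613% of genes). From 1000 bp on, none of the 8 members read was past 2-fold higher either (4%, 2.43% and 6.07% of genes). MET10 was highest in each: 408 reads (374 CPM) in set2 and 526 (402 CPM) in eaf3, against 350 (210.1 CPM) in bar1, log2 differences of 0.83 [0.62, 1.04] and 0.94 [0.74, 1.14], and 536 (439 CPM) in H3K36R against 253 (243 CPM) in WT H3, 0.85 [0.63, 1.07]. MET5 was at 0.64 [0.47, 0.81] in set2, 0.51 [0.35, 0.67] in eaf3 and 0.78 [0.58, 0.99] in H3K36R. The sulfite reductase genes were above the median of all genes (0.20, 0.12 and 0.21) in each strain, with intervals that did not reach it. MUP1 was at 0.75 [0.32, 1.18] in set2, 0.16 in eaf3 and 0.24 in H3K36R. MUP1 carries methionine into the cell. MET6 was at 0.47 [0.20, 0.74] in set2, 0.33 [0.06, 0.60] in eaf3 and −0.28 [−0.55, −0.01] in H3K36R. MET2 was lower in all 3, at −0.39 in set2, −0.63 in eaf3 and −0.39 [−0.75, −0.04] in H3K36R, and SUL1, SUL2, MET3 and MET16 were between −0.61 and 0.15. MET14, with 1 body nucleosome, was at −0.14 in set2, −0.33 in eaf3 and, under the read minimum, 0.75 in H3K36R. With TMM scaling 1 member was past 2-fold higher in eaf3.

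**Figure D3:**
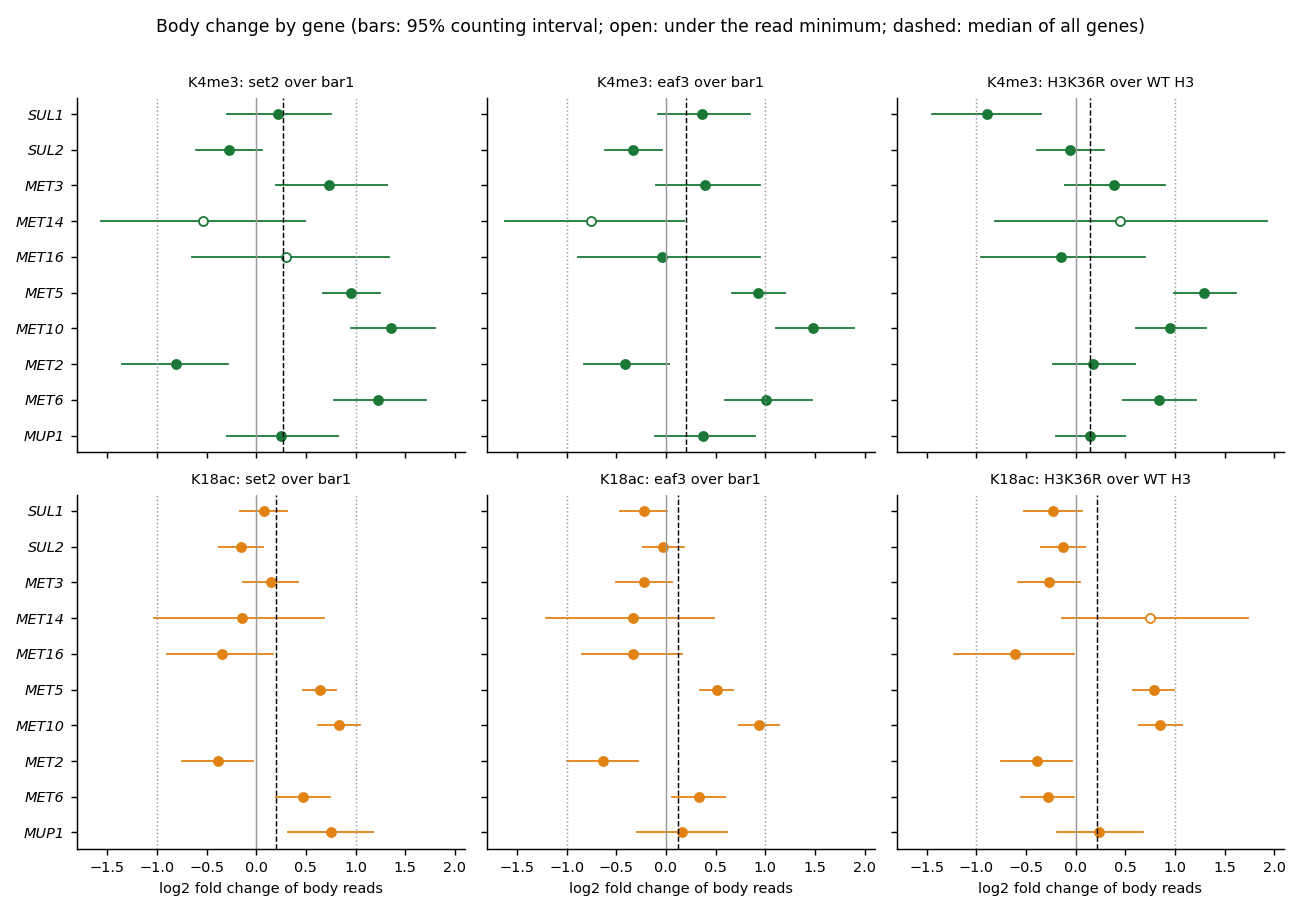
Log2 difference of body reads of K4me3 (top) and K18ac (bottom) for each gene in set2 over bar1, eaf3 over bar1 and H3K36R over WT H3, in the libraries of the mark followed by Input, with 95% counting intervals (1 library per strain). Open points are under the read minimum, dashed lines are medians of all genes and dotted lines mark 2-fold; MET5, MET10 and MET6 are the 3 highest in each K4me3 panel, and SUL1 is at −0.89 in H3K36R.

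The K36me3 libraries were read over the same bodies. The K36 methyltransferase is missing in set2 and the lysine in H3K36R. Values of these strains are thus shares of what the antibody still pulled down, not amounts of the mark. In eaf3 K36me3 stayed within 2-fold in the 8 members read, between −0.57 in MUP1 and 0.64 in MET3, against 1.91% of genes past 2-fold higher and 0.759% lower. In H3K36R, whose K36me3 library of 434317 reads comes from cells with arginine at residue 36, 4 of 8 members read were past 2-fold lower as a share of that library: SUL1 with 13 reads against 364 in WT H3, −2.22 [−3.20, −1.48], MET5 at −1.25, MET10 at −1.16 and MET6 at −1.15 (37.4% of genes). None was past 2-fold higher (4.75% of genes). SUL2 had 79 reads against 338 in WT H3, 0.44 [0.06, 0.79], and MUP1, MET2 and MET3 were between 0.01 and 0.21. In set2 the K36me3 library held 24149 reads, and 4 members were read, with 2 of them, MET10 and MUP1, past 2-fold lower (43.4% of genes) and none higher (3.64% of genes). The median of all genes was −0.81. MET10 had 2 body reads in set2 against 128 in bar1, −1.83 [−5.21, −0.27], and MUP1 had 0 against 79, at least 1.83-fold lower with a floor of 3 reads, so its place past 2-fold rests on the 0.5 reads added to each count. MET5 had 9 reads in set2 against 219 in bar1, −0.68 [−1.90, 0.20], and MET6 had 3 against 82, −0.71 [−3.23, 0.68], and both intervals reached 0. K79me3 over the body in H3K36R stayed within 2-fold of WT H3 in the 8 members read, between −0.62 and 0.78 (0.477% of genes past 2-fold higher and 0.596% lower).

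The K4me3 of MET5 in H3K36R had a second maximum in mid-gene. Along its nucleosomes H3K36R had 5 reads at 994 bp, 38 at 2090 bp, 38 at 2236 bp and 4 at 2918 bp, next to 43 on the highest 5′ nucleosome, while WT H3 had 0 reads on each of the 4 nucleosomes from 1787 to 2236 bp. Windows of 5 nucleosomes from 1000 bp on were compared after these values were seen. The window with the largest difference, 1610 to 2236 bp (chromosome X, 680974 to 681750), had 145 reads (134 CPM) in H3K36R against 2 reads (2.64 CPM) in WT H3, a log2 difference of 5.35 [3.79, 8.73]. In MET5, 6 of 16 windows were past 8-fold, against 2.33% of all windows, and 4.55% of genes had such a window.

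The WT H3 count of 2 reads sets the size of that difference as well as the width of its interval. Other libraries held more reads there. In H3K18R, a histone mutation strain not used for the comparisons, the window had 21 reads (39.9 CPM) with K4me3 followed by Input. With K4me3 followed by K4me3, H3K18R had 11 reads (30.1 CPM). In the libraries of K4me3 followed by K4me3, the window had 100 reads (112 CPM) in H3K36R against 7 (12.4 CPM) in WT H3, 9.02-fold [4.22, 23.0]. With K4me3 followed by K79me3 it had 23 reads against 2, 8.63-fold [2.13, 75.5], and with K79me3 followed by K4me3 20 against 5, 3.32-fold [1.21, 11.3]. The direction was the same in each, and the size differed. On K18ac material passed to K4me3 the window had 27 reads (128 CPM) in H3K36R and 0 in WT H3, at least 7.97-fold higher with a floor of 3 reads per library (16.1 CPM). On K4me3 material passed to K18ac it had 21 reads (300.1 CPM) in H3K36R and 0 in WT H3, at least 4.67-fold higher (floor 64.3 CPM). Nucleosomes with both marks were thus read in the window in H3K36R and not detectable at this depth in WT H3. Joint reads there were not particular to H3K36R: bar1 had 25 (32.1 CPM) on K18ac material passed to K4me3. On K4me3 material passed to K18ac, a library of 15742 reads, bar1 had 0. K18ac alone had 153 reads (125 CPM) in the window in H3K36R against 70 (67.3 CPM) in WT H3, and H3 had 12 reads (60.8 CPM) against 11 (58.8 CPM). WT H3 had 376 K36me3 reads (149.9 CPM) there.

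In set2 and eaf3 the same MET5 window had 91 reads (108 CPM) and 174 reads (103 CPM) of K4me3, against 20 (34.2 CPM) in bar1, 3.15-fold [1.92, 5.39] and 3.02-fold [1.90, 5.07]. With K4me3 followed by K4me3 the folds were 7.71 [4.53, 14.1] and 8.29 [4.94, 15.0]. With K4me3 followed by K79me3 they were smaller, 3.02 [1.98, 4.75] and 2.33 [1.55, 3.62]. The form differed from H3K36R: from 690 to 2458 bp no nucleosome of MET5 had fewer than 15 reads in set2 or 20 in eaf3, while H3K36R had its gap of 5 reads at 994 bp. This difference in form between strains was not tested. The references also differed, with 34.2 CPM in bar1 and 2.64 CPM in WT H3.

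The MET10 window from 1663 to 2293 bp (chromosome VI, 214900 to 215680) had 108 K4me3 reads (100.04 CPM) in H3K36R against 16 (21.1 CPM) in WT H3, 2.21 [1.48, 3.10] on the log2 scale. The highest nucleosome there, at 1966 bp, had 29 reads against 2. In set2 and eaf3 the window had 66 reads (78.0 CPM) and 175 reads (104 CPM), against 11 (18.8 CPM) in bar1, 4.15-fold [2.18, 8.72] and 5.52-fold [3.01, 11.3]. In K4me3 followed by K4me3 the folds were 18.1 [6.86, 67.8] in set2 and 21.5 [8.25, 79.7] in eaf3, on 99 and 181 reads against 4 in bar1, and 9.85 [4.04, 31.2] in H3K36R, on 78 reads against 5 in WT H3. With K4me3 followed by K79me3 they were 2.57 [1.60, 4.30] in set2 and 2.40 [1.53, 3.91] in eaf3, on 77 and 136 reads against 23. In H3K36R that combination gave 9.76 [1.47, 415], on 13 reads against 1. K79me3 followed by K4me3 gave 1.99 [0.65, 7.23] there, on 12 reads against 5. In the windows with the largest difference in each strain, set2 was at 2.29 from 1370 to 1966 bp and eaf3 at 2.62 [1.74, 3.85] from 1833 to 2406 bp. No MET10 window was past 8-fold in Input libraries, against 0.449% of windows in set2, 0.556% in eaf3 and 2.33% in H3K36R. The K18ac material passed to K4me3 had 18 reads from 1663 to 2293 bp in H3K36R against 3 in WT H3, 5.31-fold [1.55, 28.1].

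**Figure D4:**
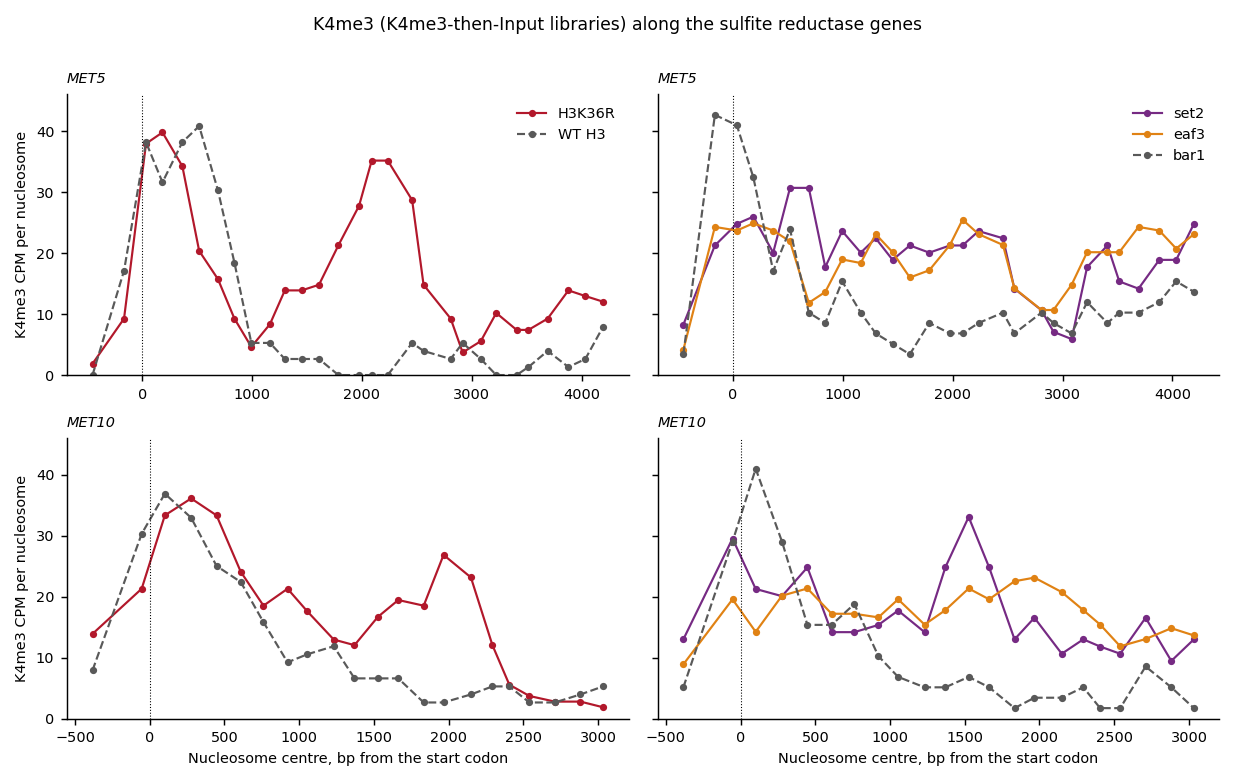
K4me3 CPM on each nucleosome of MET5 (top) and MET10 (bottom) by distance from the start codon in bp, in H3K36R and WT H3 (left) and in set2, eaf3 and bar1 (right), 1 library per line. In MET5, H3K36R has a second maximum with 38 reads at 2090 and 2236 bp where WT H3 has 0, and set2 and eaf3 lie above bar1 over most of the body of both genes.

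The order of the genes was also read in every combination that held K4me3 or K18ac without K36me3 or H3, at most 6 per strain, where at least 20 reads stood behind a value. These libraries share first-step material and are not replicates. K4me3 was higher in all combinations read in set2 in MET5, MET10 and MET6, 3 of 10 members, against 21.4% of genes. In eaf3 this held for MET3, MET5, MET10, MET6 and MUP1, 5 of 10 members, against 32.2% of genes, and in H3K36R for MET3, MET5, MET10 and MET6, 4 of 9 members, against 23.6% of genes. MET5, MET10 and MET6 were thus in all 3 lists, but the share of all genes in all 3 was not counted. The set2 and eaf3 lists also share the bar1 libraries. The set2 count includes the bar1 library of K79me3 followed by K4me3, which had 4281 reads and 0 over the bodies of these 3 genes, and without libraries under 10000 reads it was 5. That bar1 library also stands behind 1 of the MET5 values in eaf3, with 20 reads against 0. The direction of that value rests on the 0.5 reads added to each count. SUL1 was lower in all 3 combinations read in H3K36R, from −1.83 to −0.89, with 6.78% of genes lower in all, and MET2 in all 4 in eaf3, from −0.41 to −0.01, with 10% of genes lower in all.

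For K18ac, MET5, MET10, MET6 and MUP1 were higher in all combinations read in eaf3, 4 of 10 members, against 27.6% of genes, and MET5 alone in H3K36R, 1 of 9 members, against 34%. In set2 none of 10 members was, against 19.2% of genes, and there the value rests on one bar1 library of 150 reads, K79me3 followed by K18ac, which puts 5 members below 0 on no reads. Without libraries under 10000 reads 2 members, MET10 and MET6, were higher in all. SUL1 was lower in all 4 combinations read in H3K36R, from −1.83 to −0.01, against 5.8% of genes, and MET16 in all 3 in eaf3, against 13.4%.

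In MET10 and MET5 the body difference was larger in the library that passed K18ac material to K4me3 than in K4me3 followed by Input. This difference between libraries was not tested. From K18ac to K4me3, MET10 had 257 body reads in set2 and 173 in eaf3, against 55 in bar1, log2 differences of 2.50 and 1.83, and 67 in H3K36R against 11 in WT H3, 2.38. MET5 had 301 and 346 reads, against 176 in bar1, 1.06 and 1.16, and 82 in H3K36R against 14 in WT H3, 2.33. A larger value than with Input was also read in set2 with no K18ac step. There K4me3 followed by K4me3 was at 2.12 in MET10 and 1.88 in MET5, beside 1.36 and 0.95 with Input. From K4me3 to K18ac, MET5 had 38 body reads (543 CPM) in H3K36R and 0 in WT H3, at least 8.45-fold higher with the same floor. The median of all genes from K18ac to K4me3 was 0.32 in set2, 0.18 in eaf3 and 0.43 in H3K36R.

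**Figure D5:**
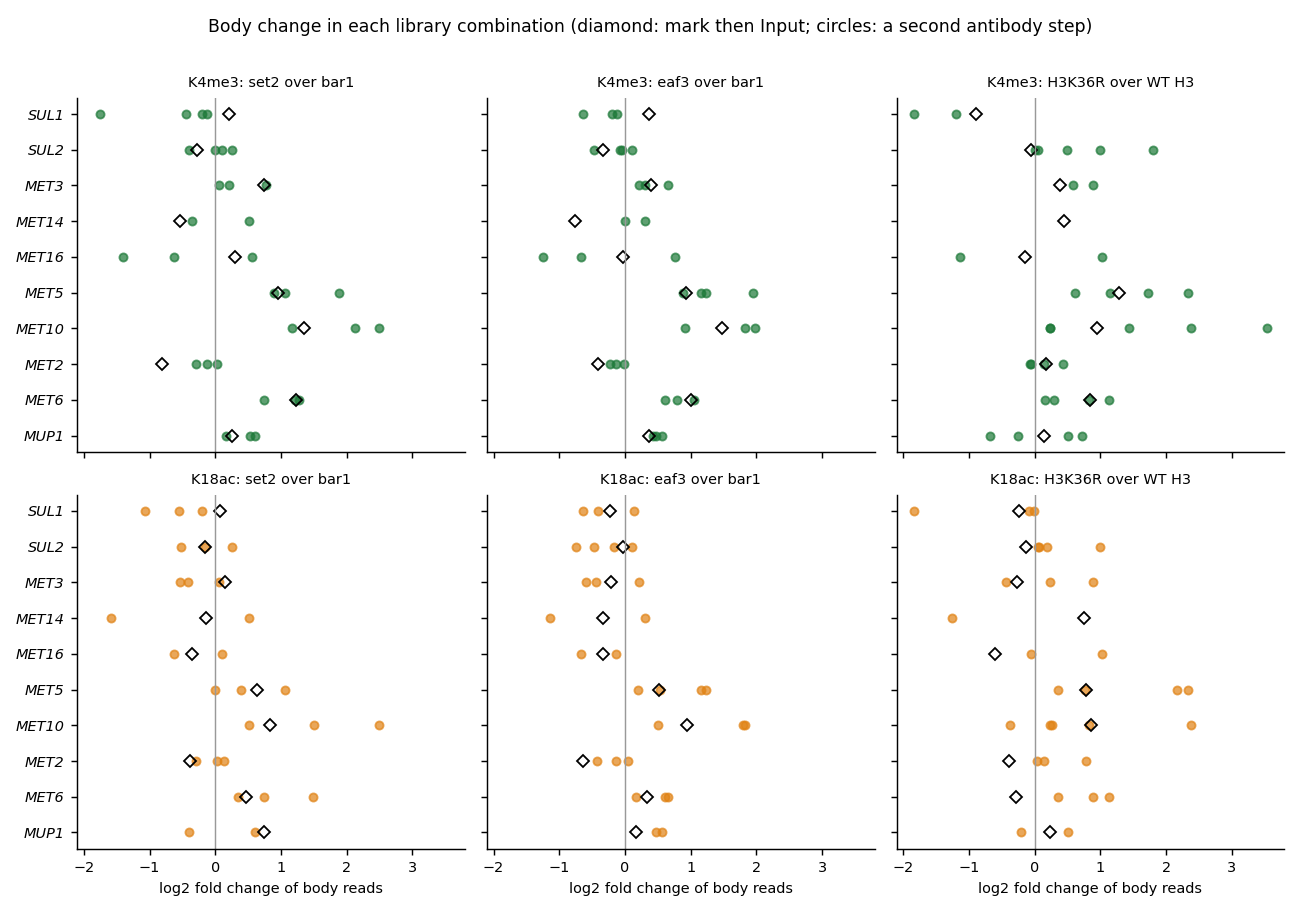
Log2 difference of body reads for each gene in each library combination with K4me3 (top) or K18ac (bottom), in set2 over bar1, eaf3 over bar1 and H3K36R over WT H3; diamonds are the mark followed by Input, circles the combinations with a second antibody, and combinations with 0 reads in either library are not drawn. All points of MET5, MET10 and MET6 for K4me3 lie right of 0, and those of SUL1 in H3K36R lie left of it.

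A further 27 genes of sulfur and methionine metabolism and its regulation were read the same way. Over the body, none of the 20 to 24 read was past 2-fold higher or lower in K4me3 or K18ac in any of the 3 strains. Of all genes, 9.28%, 8.58% and 6.02% were past 2-fold higher in K4me3 in set2, eaf3 and H3K36R, and 0.62%, 0.527% and 1.2% in K18ac. The shares past 2-fold lower were 1.42%, 0.963% and 1.07% in K4me3 and 1.13%, 0.769% and 0.613% in K18ac. The medians of the list for K4me3 were 0.10 in set2, 0.10 in eaf3 and 0.27 in H3K36R, beside 0.27, 0.20 and 0.14 over all genes. For K18ac they were 0.12, 0.04 and 0.06, beside 0.20, 0.12 and 0.21 over all genes. MET4, the activator gene, had 123 K4me3 reads in set2 and 268 in eaf3, against 142 in bar1, −0.74 [−1.10, −0.38] and −0.61 [−0.91, −0.31], and −0.13 [−0.42, 0.18] in H3K36R. CBF1 was at −0.49, −0.16 and 0.56 [0.05, 1.11] in set2, eaf3 and H3K36R. In WT H3, 13 of 19 of these genes read were above the median of all genes in K4me3 of the first 500 bp (49.9% of genes), and MET4 was at 3.35. For K18ac there, 11 of 21 read were above it (49.9% of genes). Over the body it was 13 of 21 for K36me3 and 10 of 21 for K79me3 (50% of genes for each). MET17, the O-acetylhomoserine sulfhydrylase gene and one of the 27, had 0 nucleosomes in the atlas, so no value was read for it.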

How the data were processed

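The data were combinatorial iChIP libraries, 180 in all, of 150 to 2693698 reads (median 110476, 32 under 10000). The authors deposited counts of reads per nucleosome for an atlas of 66360 nucleosomes of 151 bp, of which 65032 had counts. Reads were aligned with Bowtie2 to sacCer3, per the submitters' processing notes, and the version is not given in the sources used here. Input was read as first-step material that met no second antibody. Counts were summed per gene and zone, scaled to library totals and compared as log2 ratios with 0.5 reads added to each count, with exact conditional 95% intervals, in Python 3.11.15 with scipy 1.17.1. The interval code was checked on simulated data. Genes needed 50 reads in both libraries together, and combinations 20. A library at 0 was given a floor of 3 reads. TMM factors came from edgeR 4.0.16. Gene positions and names came from RefSeq, with strand from the locus tag. With 1 library per strain and combination there was no replicate, so no test was made. All 10 members are named, with the nucleosome highest in each mark, and further nucleosomes and all windows were chosen after their values were seen. The members and the list of 27 further genes were chosen with earlier results of these data known.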

Additional observations from a re-analysis of the deposited data

How the results depend on the processing

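No member value past 2-fold changed direction under the alternatives run. Of the alternative values of the counts of members, 92 stayed within 1.5 times and 32 did not, and of those for single members 570 stayed within the counting interval and 19 did not. For the wild-type levels, the count of members above the median of all genes in K4me3 of the first 500 bp (0) was 3 with H3 summed over 4 strains, 3 in bar1, 4 with no read minimum and 2 with the zone border at 1000 bp. For K18ac there (3) it was 5 with H3 summed over 4 strains and 6 with the border at 1000 bp. In bar1, body K36me3 (4) gave 2 and body K79me3 (3) gave 5. Members past the fold threshold in body K4me3 in set2 (2) were 1 with median centring and 4 at 1.5-fold. In eaf3 (2) they were 4 with the border at 1000 bp and 1 with median centring, and in H3K36R (1) they were 4 with that border and 3 at 1.5-fold. For K18ac (0 in each strain) they were 3 in set2, 1 in eaf3 and 2 in H3K36R at 1.5-fold, and 1 in eaf3 with TMM factors. Members higher in all combinations read for K18ac in set2 (0) were 2 with log2(CPM + 1), 2 with at least 200 reads, 2 with TMM factors, 2 with the border at 1000 bp, 2 without libraries under 10000 reads and 1 with median centring. For K4me3 in set2 (3) they were 5 with log2(CPM + 1), 5 with TMM factors and 5 without libraries under 10000 reads. In eaf3, K18ac (4) gave 0 with no read minimum and 2 with at least 200 reads, and K4me3 (5) gave 2 and 3. In H3K36R, K18ac (1) gave 2 with the border at 1000 bp. The cause was not tested. At least 200 reads left no member for some wild-type levels, which then have no value. The alternatives for the windows were chosen after seeing the data: MET5 in H3K36R was at 5.37 with TMM factors, 5.22 with log2(CPM + 1), 5.31 after subtracting the H3 difference and 3.08 with K4me3 followed by K4me3, and MET10 at 2.23, 2.19, 2.63 and 3.17. No paired analysis was possible because each strain and combination had 1 library. Depth limited K79me3 in bar1 and eaf3 and K36me3 in set2, and the few H3 reads per gene set the width of the wild-type intervals.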
